A study of Drosophila melanogaster with 3 samples.

Results

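Binding of the nuclear protein Pipsqueak (Psq) was examined at 8 genes of the Jun N-terminal kinase (JNK) pathway and its transcription factor AP-1 in whole Drosophila larvae. The genes were listed by name as egr, msn, slpr, hep, bsk, Jra, kay and puc, 8 of 13945 protein-coding genes on the chromosome arms. The rule that lists them uses no measured value, but the list was chosen with earlier results of these data known. ChIP-seq was run on wandering larvae of the third instar from the line psq-GFP, a transgenic line that stably produces Psq carrying GFP at its C-terminal end. Males and females were pooled, the larvae's exact age is given as unknown, and an anti-GFP antibody was used. There was 1 group of 3 biological replicates, all of that line, with no other genotype or condition. Peaks come from every tissue of the larva at once, so a peak cannot be assigned to a cell type, and the labels used here do not say how much untagged Psq the line still makes.

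JNK signalling is a stress and morphogenesis pathway in which a ligand and upstream kinases switch on a chain of kinases that ends in JNK. JNK phosphorylates AP-1, a pair of bZIP proteins of the Jun and Fos families, and AP-1 then acts on target genes. In flies the pathway is known for the closure of epithelia, wound healing and the removal of damaged cells in imaginal discs. One of its best known target genes, puc, encodes a phosphatase that shuts JNK off again. Psq carries a BTB domain and DNA-binding domains of its own type, and it is known to bind DNA rich in GA repeats.

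The DNA under some summits that held the word GAGAG is shown for kay, puc and hep. It gives the 3 highest such summits of kay, the highest of hep, and a puc summit beside that gene's strongest one. Other summits in the member windows also held the word, some of them higher than the puc and hep ones shown. A summit is the base at which a peak of the authors' list is highest. Each line gives the reference sequence (RefSeq, dm6) on the strand of the gene, up to 100 bp on each side of the summit, with bases annotated as untranslated exon left off. Capitals mark GAGAG or its reverse complement CTCTC, and positions are relative to a transcription start site (TSS) of the gene. The windows were picked after their values had been seen.
kay, 761 bp upstream of its second TSS, chr3R:29772031-29772231, plus strand: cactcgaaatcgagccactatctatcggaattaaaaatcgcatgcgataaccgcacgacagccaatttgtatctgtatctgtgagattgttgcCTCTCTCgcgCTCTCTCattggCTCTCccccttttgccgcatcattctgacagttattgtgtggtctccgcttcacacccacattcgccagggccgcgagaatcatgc
kay, 28 bp upstream of its second TSS, chr3R:29772764-29772891, plus strand: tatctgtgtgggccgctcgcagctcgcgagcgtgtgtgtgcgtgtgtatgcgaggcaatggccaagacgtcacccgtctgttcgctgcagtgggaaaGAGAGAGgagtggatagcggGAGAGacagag
kay, 1787 bp downstream of its second TSS, chr3R:29774579-29774779, plus strand: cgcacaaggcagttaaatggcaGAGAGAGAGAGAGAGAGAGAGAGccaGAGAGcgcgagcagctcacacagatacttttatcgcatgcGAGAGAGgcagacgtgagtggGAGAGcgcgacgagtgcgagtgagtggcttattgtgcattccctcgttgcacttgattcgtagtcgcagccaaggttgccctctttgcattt
puc, 200 bp upstream of its second TSS, chr3R:8106188-8106388, plus strand: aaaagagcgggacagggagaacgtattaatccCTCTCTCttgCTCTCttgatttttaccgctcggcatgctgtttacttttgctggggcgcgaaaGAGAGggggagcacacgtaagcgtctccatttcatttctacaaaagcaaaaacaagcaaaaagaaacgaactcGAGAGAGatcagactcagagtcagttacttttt
hep, 2823 bp downstream of its TSS, chrX:13087511-13087711, minus strand: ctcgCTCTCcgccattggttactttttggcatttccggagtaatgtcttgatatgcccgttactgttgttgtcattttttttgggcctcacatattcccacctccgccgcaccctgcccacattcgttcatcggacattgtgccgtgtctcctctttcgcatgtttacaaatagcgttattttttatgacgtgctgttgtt
The kay window 1787 bp downstream held 14 overlapping copies of GAGAG, most of them in a single run, and the puc window held 6. The kay windows 761 bp and 28 bp upstream held 5 and 3 copies. The hep window held 1 copy, at its edge, although its summit was the highest of that gene.

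A second set is shown because it carries TGACTCA, the word that AP-1 itself is known to recognise. Capitals mark that word on either strand, along with GAGAG. These are the windows on chromosomes 3L and 3R in which the summit also lay among the 10138 strongest peaks of at least 2 replicates.
puc, 7742 bp downstream of its second TSS, chr3R:8114130-8114330, plus strand: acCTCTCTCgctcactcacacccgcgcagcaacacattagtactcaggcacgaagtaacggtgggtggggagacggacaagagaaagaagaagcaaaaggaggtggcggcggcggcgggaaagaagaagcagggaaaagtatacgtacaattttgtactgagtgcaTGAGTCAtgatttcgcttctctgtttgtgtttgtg
puc, 567 bp downstream of its first TSS, chr3R:8105861-8105999, plus strand: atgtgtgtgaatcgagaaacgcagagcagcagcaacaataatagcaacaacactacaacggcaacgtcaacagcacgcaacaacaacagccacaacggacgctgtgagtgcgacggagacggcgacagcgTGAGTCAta
puc, 7007 bp downstream of its second TSS, chr3R:8113395-8113595, plus strand: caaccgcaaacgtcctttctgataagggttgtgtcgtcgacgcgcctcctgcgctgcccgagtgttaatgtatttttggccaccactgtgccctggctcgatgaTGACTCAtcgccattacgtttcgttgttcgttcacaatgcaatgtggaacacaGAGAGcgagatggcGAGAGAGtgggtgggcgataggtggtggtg
kay, 3815 bp upstream of the third TSS, chr3R:29778694-29778894, plus strand: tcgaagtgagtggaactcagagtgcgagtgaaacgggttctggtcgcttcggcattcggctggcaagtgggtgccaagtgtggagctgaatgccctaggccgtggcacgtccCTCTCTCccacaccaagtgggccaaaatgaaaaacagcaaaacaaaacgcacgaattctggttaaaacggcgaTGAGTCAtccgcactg
msn, 13111 bp downstream of its second TSS, chr3L:2573043-2573243, minus strand: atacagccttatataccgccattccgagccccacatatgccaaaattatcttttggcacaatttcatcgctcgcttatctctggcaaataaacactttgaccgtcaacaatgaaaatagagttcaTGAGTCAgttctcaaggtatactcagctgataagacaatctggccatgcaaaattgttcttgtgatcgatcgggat
Each of these windows held the word once. Its centre lay 7 bp from the summit in the puc window 7007 bp downstream and 28 bp from it in the msn window. In the other 3 windows the distance was 69 bp, 88 bp and 95 bp, nearer to the window's edge than to its middle. A match of letters is a description of the window and not a site shown to be used.

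The replicates' deposited lists held 28037, 28294 and 24291 peaks, and the authors' optimal list, thresholded by reproducibility, held 10138, of which 10105 lay on the 6 chromosome arms. The lists give no read counts, so read depth is unknown, and an empty gene is one where no peak was called. The score of a peak, a signal value set by the authors, was taken over the middle value of the 10138 strongest peaks of its replicate, which gives the relative score. A relative score of 1 is therefore the middle of a replicate's strong peaks. Values with ± are means and SDs over 3 replicates. A summit is called supported in a replicate when one of these strong peaks lay within 200 bp of it. Since the optimal list was built from the same replicates, this support is not independent of them. In the window of psq itself there were 50 optimal summits, the highest of those near a TSS at 5.67 ± 1.37.

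Optimal summits lay in the span plus 5 kb on each side of 7 of the 8 genes, all but bsk. Among all coding genes 49.6% had one. A summit no more than 1000 bp from a TSS was present at the same 7 genes, against 28.7% of coding genes. Long windows catch more summits, and the member windows had a median of 19.1 kb, against 12.2 kb for all coding genes. By window length, 44.3% of genes with 10 to 15 kb had a summit, 62.8% of those with 15 to 25 kb and 70.9% of those with 25 to 50 kb. Of the members, bsk and Jra fall in the first class, egr, slpr and hep in the next, and msn, kay and puc in the longest. With 8 genes and shares of this size, the count for the list as a whole says little about it.

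The member windows held 50 optimal summits. The genes msn, puc and kay took 39 of them, with 14, 13 and 12. Jra had 5, hep had 4, and egr and slpr had 1 each. Of all coding genes 1.16% had 12 or more summits, a limit set here at kay's own number, and 6.24% of those with windows of 25 to 50 kb did. Counted per 10 kb of window, puc led with 4.82, ahead of Jra with 4.14, msn with 3.36 and kay with 3.15. Of the 5 Jra summits, 4 were nearest to another gene's TSS.

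**Figure D1:**
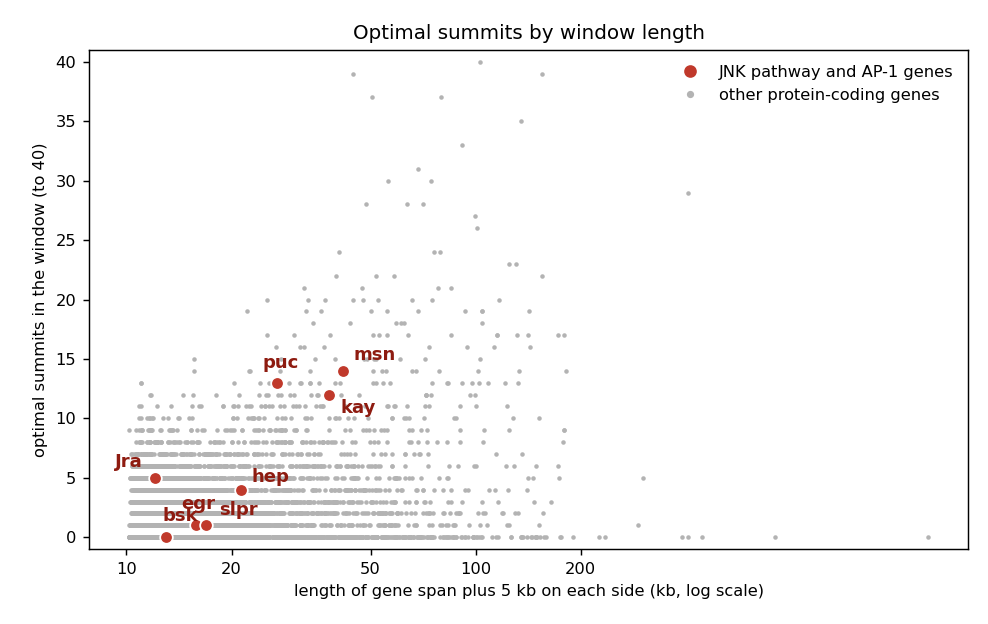
Number of optimal summits (vertical axis, up to 40) against window length in kb on a log scale (horizontal axis), red for the 8 JNK pathway and AP-1 genes and grey for the other protein-coding genes, of which 4 lie above the plotted range. msn, puc and kay stand at 14, 13 and 12 summits among genes of similar length, and bsk lies at 0.

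Of the 50 summits, 33 (66%) were supported in all 3 replicates, against 58.3% of all optimal summits. Another 11 were supported in 2 replicates, 4 in 1 and 2 in none. All but 2 were present in the full list of every replicate. By position, 23 lay within 500 bp of some TSS, 19 in introns, 3 between genes, 2 in a 5′ untranslated region, 2 in exons of noncoding RNA and 1 in coding sequence. The nearest coding TSS was the member's own for 31 summits and another gene's for 19. No share over all optimal summits is given for the counts by full list, position and nearest TSS, so they describe these summits only. The median relative score was 1.28 for the member summits and 0.981 for all optimal summits. In the top 10% of the optimal list by score were 12 (24%) of the member summits, against 9.73% of all optimal summits on the arms. Among the 12 were summits nearest to other coding genes: Spn at rank 848, 14-3-3zeta at ranks 182 and 393, and CG7878 at rank 839. The rest lay in the windows of kay, puc and hep. Median GC content within 100 bp was 48.0% for member summits and 48.3% for all.

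**Figure D2:**
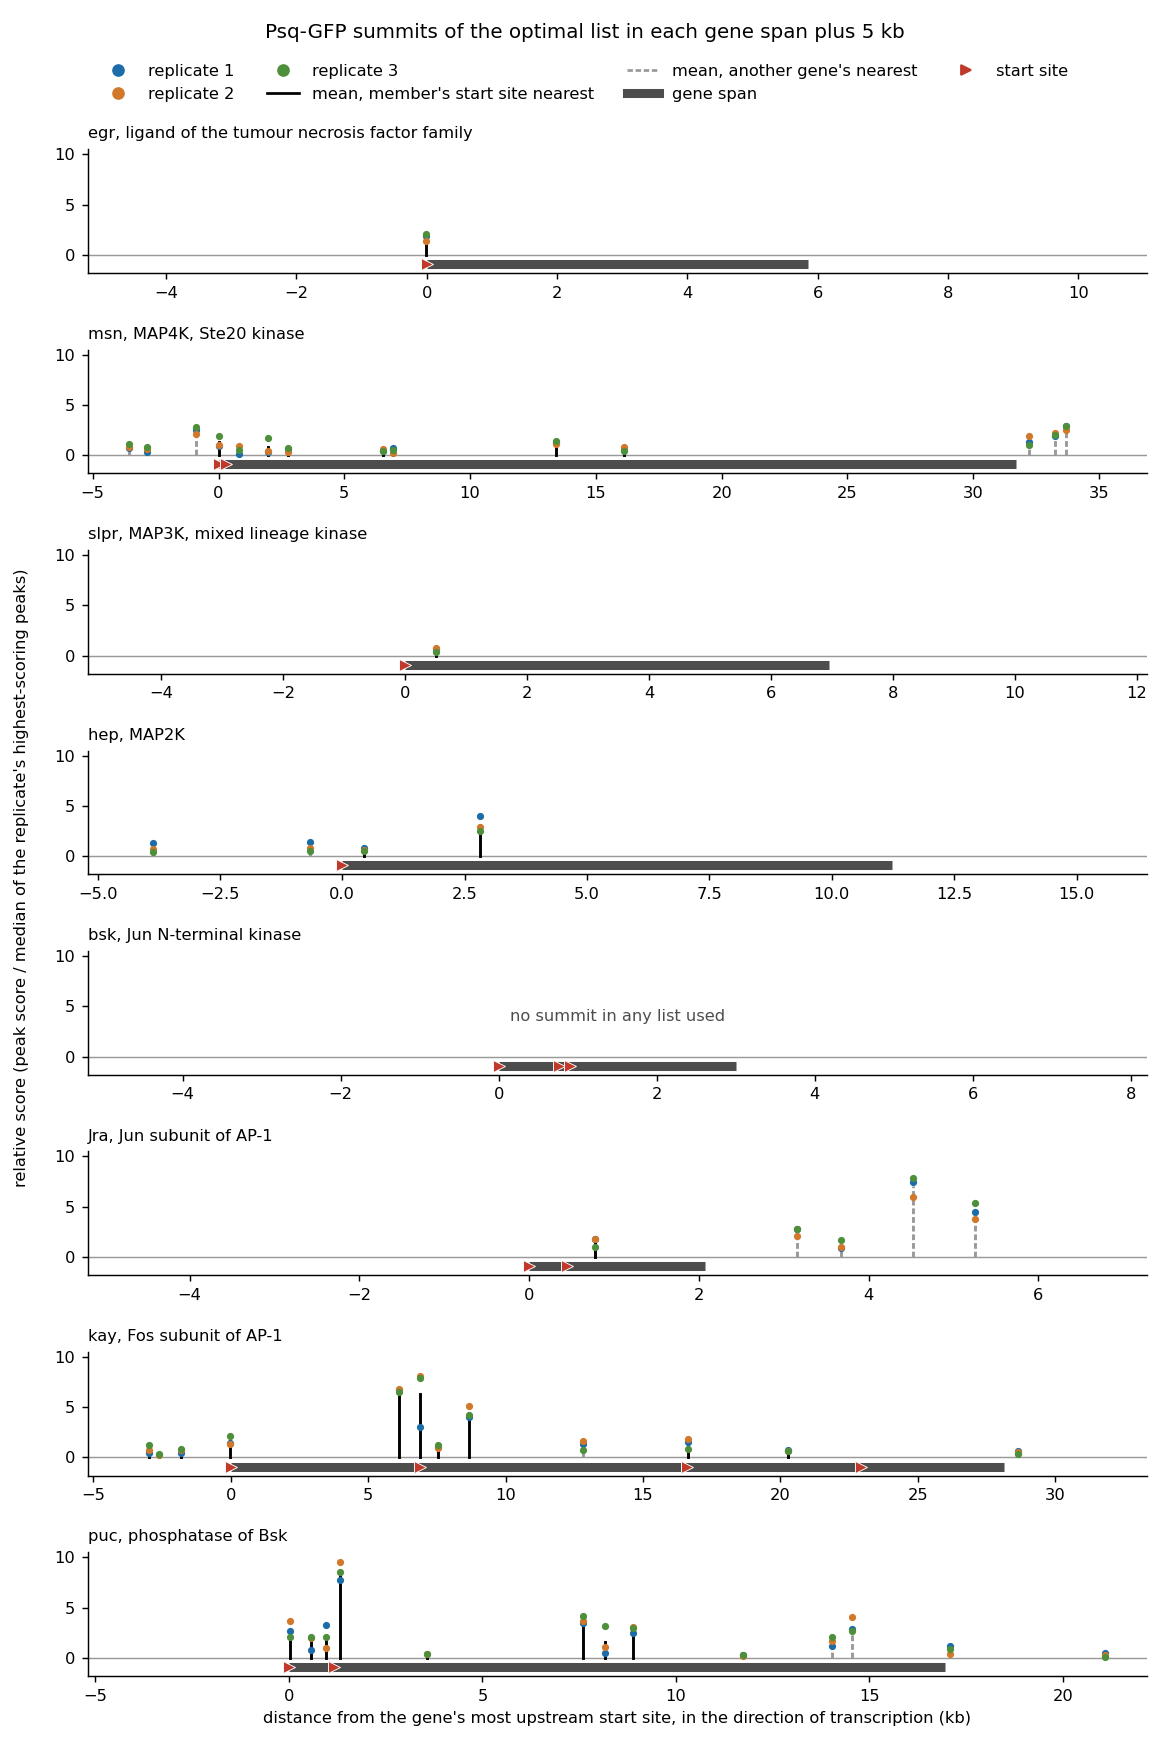
Relative score (vertical axes) of each optimal summit against its distance in kb from the gene's most upstream TSS (horizontal axes, a different scale for each gene), with points for the 3 replicates and a line up to their mean. Summits crowd around the second TSS of kay and around both TSSs of puc, while those at either end of msn and downstream of Jra are nearest to other genes.

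At the top of the pathway, egr encodes the tumour necrosis factor ligand Eiger. Its single summit lay at its promoter, 18 bp upstream of its only TSS (gene at 2R:10078366-10084210, plus strand). The relative score was 1.89 in replicate 1, 1.39 in replicate 2 and 2.11 in replicate 3, a mean of 1.80 ± 0.374. All 3 values were above the middle of the strong peaks, and the summit was supported in all replicates. It ranked 3349 in the optimal list. The window of 201 bp around it held neither GAGAG nor TGACTCA. No second optimal summit was found along the gene or its flanks.

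Among the upstream kinases, msn encodes Misshapen, a kinase of the Ste20 family that feeds into the MAP kinase chain. The gene lies at 3L:2554847-2586540 on the minus strand with 2 TSSs 286 bp apart. Of its 14 summits, 8 were nearest to msn and 7 were supported in all replicates. The promoter summit, 18 bp downstream of the first TSS, scored 0.945, 1.02 and 1.90 in replicates 1 to 3 (1.29 ± 0.533). Replicate 3 was the high one there, and the other two lay close to the middle of the strong peaks. The intronic summit with the AP-1 word, 13111 bp downstream of the second TSS, scored 1.29, 1.10 and 1.41 (1.26 ± 0.158). Its mean was close to that of the promoter, with a smaller spread. The remaining 6 summits nearest to msn were intronic and weak, with mean relative scores of 0.466 to 0.838.

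The strongest summits of the msn window belonged by distance to its neighbours. Past its 3′ end, 3 summits lay nearest to Spn, which encodes a Spinophilin that binds protein phosphatase 1. The highest, in an intron 1445 bp from that TSS, scored 2.91, 2.48 and 2.91 (2.77 ± 0.25). On the upstream side the promoter of the ribosomal protein gene RpL8, 908 bp from the first TSS of msn, scored 2.49, 2.10 and 2.85 (2.48 ± 0.377). In every replicate both were higher than the msn promoter. A further pair, at 0.568 and 0.847, lay nearest to dos, an adaptor of receptor tyrosine kinases, and the second of these held 8 copies of GAGAG.

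The next kinase, slpr, encodes Slipper, a MAP kinase kinase kinase of the mixed lineage type. The gene lies at X:8170229-8177185 on the minus strand. It had 1 summit, in the 5′ untranslated region 516 bp downstream of its TSS. The relative score was 0.714, 0.776 and 0.392 in replicates 1 to 3 (0.627 ± 0.206). All were below the middle of the strong peaks, and in replicate 3 the peak was not among them. At rank 8974 of the optimal list it was the weakest of the members' highest summits.

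A kinase that phosphorylates JNK is Hemipterous, encoded by hep (X:13079205-13090434, minus strand). Its highest summit lay in an intron 2823 bp downstream of its TSS and scored 4.02, 2.90 and 2.47 (3.13 ± 0.801). All replicates there were well above the middle of the strong peaks, and the rank was 707. Its promoter summit, 434 bp downstream of the TSS, was weaker at 0.762, 0.590 and 0.503 (0.619 ± 0.132). All 4 summits of the window were supported in every replicate. The other 2 lay at the promoters of lic, which encodes the MAP kinase kinase of the p38 branch, and of CG2200, at 0.883 ± 0.487 and 0.836 ± 0.467. At all 4 summits replicate 1 was the highest and replicate 3 the lowest.

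JNK itself is the product of bsk (2L:10247502-10250501, minus strand, 3 TSSs). No summit fell in its 13.0 kb window in the optimal list, in the list of 30000 peaks called on all replicates together, or in the full list of any replicate. The nearest optimal summits lay 5.57 kb beyond the upstream edge of the window and 16.1 kb beyond the downstream edge. Of all coding genes 33.1% had no summit in any of these lists, and of those with windows of 10 to 15 kb 38% had none. An empty window of this length was thus common.

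Of the AP-1 genes, Jra encodes the Jun subunit (2R:10096480-10098556, plus strand, 2 TSSs). Only 1 of its 5 summits was nearest to Jra, 324 bp downstream of the second TSS. It scored 1.81, 1.81 and 0.999 (1.54 ± 0.469), with replicate 3 lowest. The window of that summit held TGACTCA, 80 bp from the summit, and no GAGAG. The other 4 summits lay downstream, nearest to 14-3-3zeta, an adaptor that binds phosphorylated proteins. One at 34 bp from a 14-3-3zeta TSS scored 7.50, 5.95 and 7.82 (7.09 ± 1.00). Its lowest replicate was above the highest replicate of the summit nearest to Jra. The next, 702 bp from that gene's TSS, reached 4.56 ± 0.804, and both held 4 copies of GAGAG. All 5 were supported in every replicate.

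The Fos subunit of AP-1 is encoded by kay, a long gene with 4 TSSs (3R:29765995-29794113, plus strand). The signal was concentrated at the second TSS, 6897 bp downstream of the first. The summit 761 bp upstream of it, in an intron of the longer transcript, scored 6.70, 6.78 and 6.48 (6.65 ± 0.153). These were among the closest replicate values of any strong member summit. At the start itself, 28 bp upstream, the scores were 3.03, 8.09 and 7.87 (6.33 ± 2.86). Replicate 1 stood apart there, although its own summit lay only 17 bp away, and in replicates 2 and 3 this was the highest summit of the gene. The GA-rich window 1787 bp downstream scored 4.05, 5.09 and 4.19 (4.45 ± 0.567), and its nearest TSS was that of the noncoding RNA gene lncRNA:CR46110, 372 bp away.

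The other kay TSSs had weaker signal. Summits 26 bp upstream of the first TSS and 6 bp downstream of the third TSS scored 1.63 ± 0.439 and 1.40 ± 0.461. The fourth had no optimal summit within 1000 bp. At both of these promoters the highest replicate was below the lowest replicate at either of the strongest summits of the second TSS. A summit in the 5′ untranslated region, 630 bp downstream of the second TSS, reached 1.08 ± 0.127. The 3 summits upstream of the gene were low, at 0.790, 0.289 and 0.661, and the middle one was not found in replicate 1. In all, 10 of the 12 summits had a kay TSS as their nearest coding TSS, the one near lncRNA:CR46110 included, and 8 were supported in all replicates. An intronic summit 2673 bp upstream of the fourth TSS was at 0.674 ± 0.043. The exceptions by distance lay nearest to fig, a gene within a kay intron, at 1.25 ± 0.454, and to sro, a gene of ecdysteroid synthesis past the 3′ end, at 0.488 ± 0.166. A highest score near a TSS at or above that of kay was seen in 77 (0.552%) of the 13945 coding genes, of which 3992 had a value.

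The phosphatase gene puc, the feedback inhibitor of JNK, had the strongest summit of all 50 (3R:8105332-8122294, plus strand, 2 TSSs). It lay 171 bp downstream of the second TSS and scored 7.72, 9.58 and 8.54 (8.61 ± 0.935), at rank 94 of the optimal list. A highest score near a TSS at or above it was seen in 36 (0.258%) of the 13945 coding genes, of which 3992 had a value. The window of that summit held no GAGAG. Within the same deposited peak interval lay the GA-rich summit 200 bp upstream of the TSS, which scored 3.26, 0.963 and 2.05 (2.09 ± 1.15). The replicates differed in order between the pair, since replicate 2 was the highest at the first and the lowest at the second. Around the first TSS, 1156 bp upstream of the second, a summit at 25 bp scored 2.70, 3.62 and 2.10 (2.81 ± 0.766).

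Inside the puc gene, a group of 3 summits lay near the noncoding RNA gene lncRNA:CR44331. The first, 6448 bp downstream of the second puc TSS, scored 3.46, 3.64 and 4.12 (3.74 ± 0.340). The second, with the AP-1 word 7 bp from its summit, scored 0.440, 1.13 and 3.20 (1.59 ± 1.43). Its SD was nearly as large as its mean, with replicate 3 far above the others. The last, which also held the AP-1 word, scored 2.50, 3.06 and 3.01 (2.86 ± 0.306). Further 3′, in the gene's introns but nearer to the TSS of CG7878, a pair of summits reached 1.66 ± 0.425 and 3.20 ± 0.739. The 4 other summits 3′ of the second TSS were at 0.242 to 0.825. The last of the 13, in coding sequence 567 bp downstream of the first TSS, scored 0.762, 2.03 and 2.08 (1.62 ± 0.747). Of the 13 summits, 8 had a puc TSS as their nearest coding TSS, the group of 3 near lncRNA:CR44331 included, and 8 were supported in all replicates.

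Taking for each gene the highest summit nearest to its own TSS, the order was puc, kay, hep, egr, Jra, msn and slpr. The replicate values of neighbours in that order did not overlap between puc and kay, kay and hep, hep and egr, or msn and slpr. Those of egr and Jra overlapped, as did those of Jra and msn, so these 3 genes cannot be ranked. The kay values are those of its summit with the highest mean, 761 bp upstream of its second TSS. The kay summit 28 bp upstream of that TSS scored 3.03, 8.09 and 7.87 in replicates 1 to 3. These values overlap those of both puc and hep, so the separation of kay from them holds for the chosen summit only. With the highest summit anywhere in the window instead, Jra moved up through the 14-3-3zeta promoter, and its values overlapped those of both puc and kay. The values of hep and msn overlapped as well. In either order puc and kay, the phosphatase and Fos genes, stood above hep in every replicate, and slpr stood last in every replicate. With 3 replicates of a single group no test of this order was made.

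**Figure D3:**
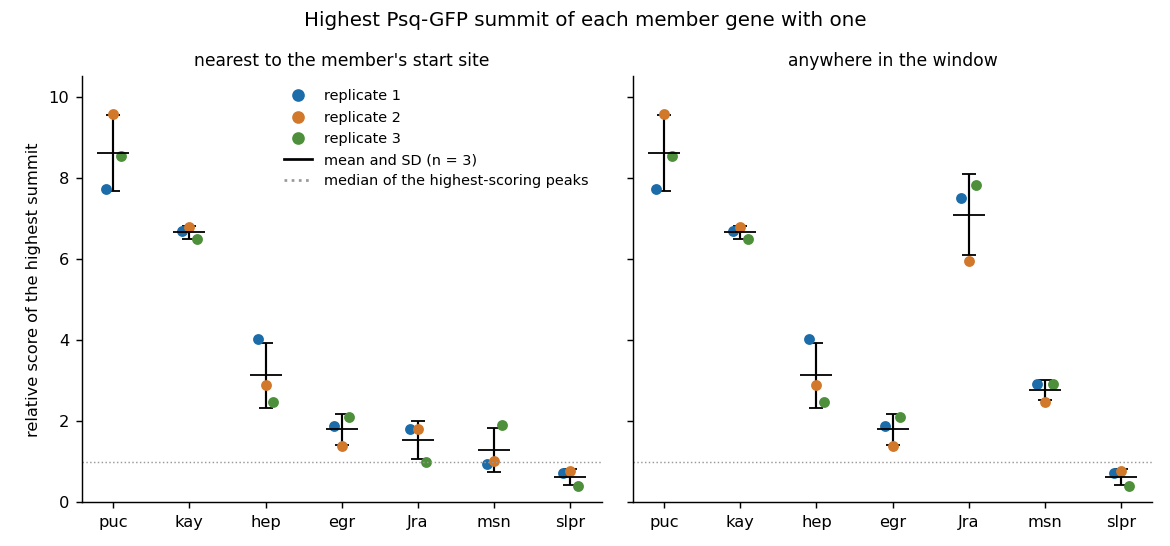
Relative score (vertical axis) of the highest optimal summit of each member gene that has one, nearest to its own TSS (left) or anywhere in its window (right), with points for the replicates and bars for mean and SD (n = 3). puc, at 8.61, and kay, at 6.65, lie above the others on the left, and Jra rises to 7.09 on the right.

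The word GAGAG, searched on both strands within 100 bp of the summit, was present at 25 (50%) of the member summits. Among all optimal summits 45.3% held it, and among 664860 consecutive genome windows of the same 201 bp 21.5% did. The longer GAGAGAGA, every copy of which also contains GAGAG, was present at 10% of member summits, 8.65% of all optimal summits and 1.13% of genome windows. For both words the member share was near that of the optimal list. Member summits with GAGAG had a median relative score of 1.59 and those without it 1.19, against 1.13 and 0.876 over the whole optimal list.

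The AP-1 word TGACTCA was present at 8 (16%) of the member summits, against 2.25% of all optimal summits and 1.59% of genome windows. The looser TGANTCA, which includes it, was also present at 8 summits (16%), against 3.94% and 3.93%. The 8 were spread over 4 genes, with 4 in puc, 2 in kay and 1 each in msn and Jra. Of them 5 were supported in all replicates, while 1 in the puc intron at 0.242 and 1 upstream of kay at 0.289 were supported in none. Their median relative score was 1.40, against 1.24 for the member summits without the word. Over all optimal summits the medians were 0.960 with the word and 0.981 without it.

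Counted over their whole length, summits included, the member windows held 36 copies of this word in 186 kb. That is 1.94 per 10 kb, against 0.832 per 10 kb over the chromosome arms. Of these copies, puc had 13 and msn 13, kay 7, Jra 2 and slpr 1, while egr, hep and bsk had none. Per 10 kb, puc had 4.82, msn 3.12, kay 1.84 and Jra 1.66. The rate in slpr, 0.590, was below that of the arms, as were the 3 windows without a copy. The DNA within 100 bp of a summit made up 5.41% of the windows and held 8 of the 36 copies. No hit at egr, slpr or hep summits says only that these letters were not in those windows.

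**Figure D4:**
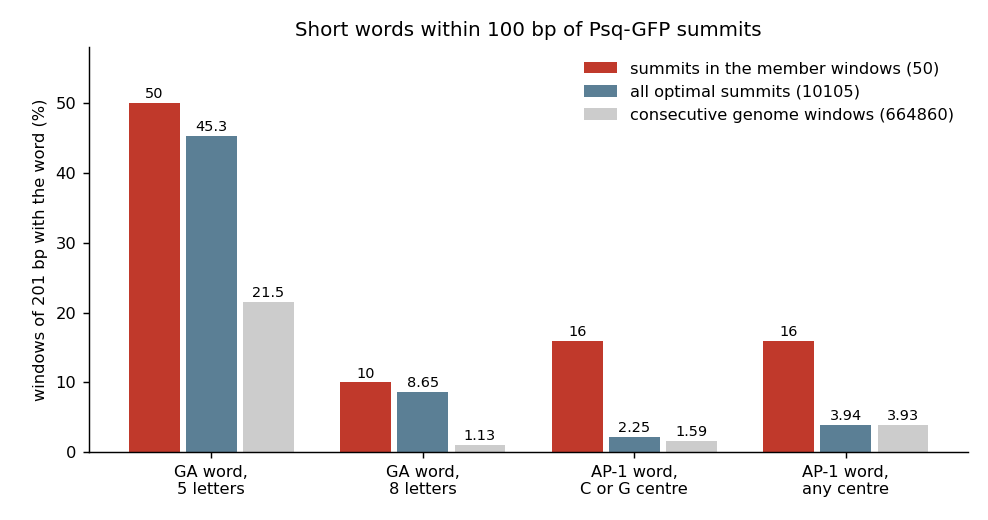
Share (vertical axis, in percent) of windows of 201 bp with each of 4 short words, for the 50 summits in the member windows, all 10105 optimal summits and consecutive genome windows. The GA words are about as frequent at member summits as in the whole list, at 50% against 45.3% for the shorter one, while the AP-1 word stands at 16% against 2.25%.

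Beyond the 8 members, 55 other genes were looked at in lists by role, 4 of them of the p38 branch and listed for comparison. Of the 55, 39 (70.9%) had an optimal summit within 1000 bp of a TSS, 3 of them p38 branch genes, against 28.7% of all coding genes. The counts of the lists below are to be read beside that share, which is not matched for gene length or number of TSSs. Some of these genes are long, such as Mmp2 with a window of 82.7 kb, against a median of 12.2 kb for all coding genes. The lists were chosen with earlier results of these data known, and most of them are short. Of the ligand's receptors and their adaptors, 3 of 4 had one. The receptor gene grnd led at 1.94 ± 0.189, a summit 4 bp from the TSS of its neighbour CG10283, followed by the adaptor gene Traf4 at 1.28 ± 0.214 and the receptor gene wgn at 0.884 in the 2 replicates where it was found. Traf6 had none. Of the upstream kinases and scaffolds, 9 of 14 had one. The kinase gene wnd led at 2.99 ± 0.449, before Src64B, a Src kinase gene, at 2.40 ± 0.617. Tak1, Ask1, POSH, Aplip1 and Rac1 had none.

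All 9 genes of other bZIP factors and of modulators of AP-1 had a summit near a start, where 28.7% of all coding genes did. The highest were aop, an ETS repressor gene, at 4.04 ± 0.593, raw, which opposes JNK signalling in dorsal closure, at 3.33 ± 0.748, and CrebA, a bZIP gene of the secretory pathway, at 2.05 ± 0.454. Of the reported JNK target or effector genes, 16 of 25 (64%) had one, against the same 28.7%. These were led by zip, the heavy chain of nonmuscle myosin, at 4.41 ± 0.804, the cell death gene hid at 4.19 ± 1.42 and the stress gene Gadd45 at 2.97 ± 0.582. The 9 without one included all of upd1, upd2 and upd3, the cytokine genes of JAK/STAT signalling, and Ilp8, an insulin-like peptide gene. No gene of these lists reached the highest summits of puc or kay on the mean, and the median over the 39 was 1.49. Among members the median of the same quantity, which for msn and hep is the promoter summit of a neighbour, was 1.80 over 7 genes, against 1.21 over the 3992 coding genes with a value.

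**Figure D5:**
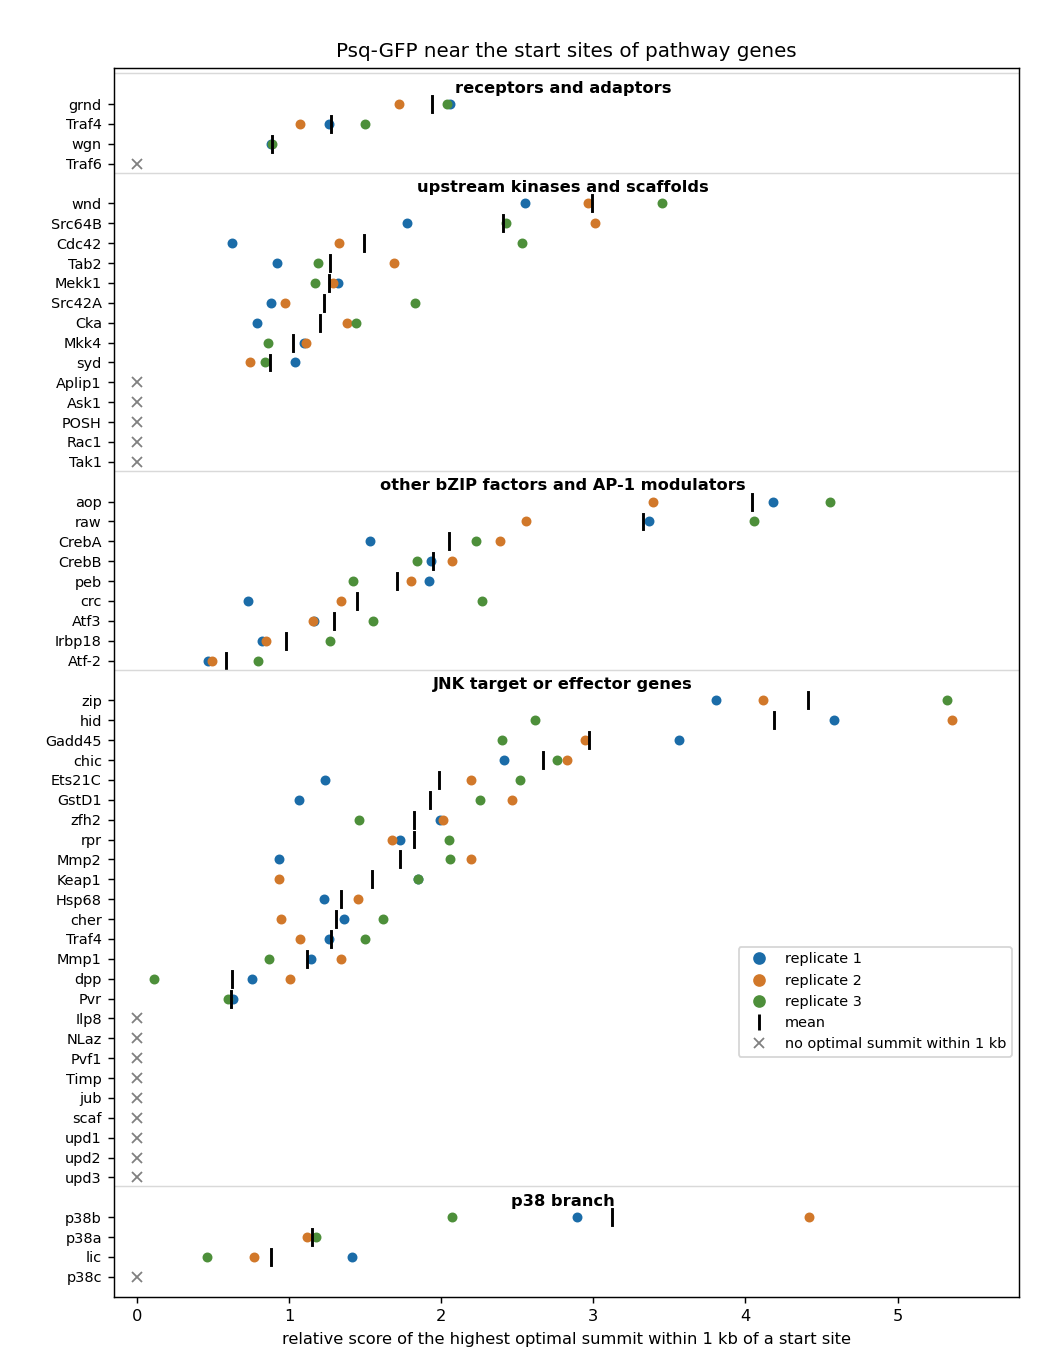
Relative score (horizontal axis) of the highest optimal summit within 1 kb of a TSS for 55 other genes linked to JNK signalling or of the p38 branch, grouped by role, with points for the replicates, a bar for their mean and a cross where no optimal summit was found. zip, hid and aop lie highest, at 4.41, 4.19 and 4.04, and every list but that of the bZIP factors and AP-1 modulators has genes without a summit.

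For each member with a summit near a TSS, the coding genes with the most similar relative scores over the 3 replicates were found by the summed absolute difference in log2 relative score of the highest such summit. The nearest to puc were mtd (0.13) and Gdi (0.34). The nearest to kay were Rbfox1 (0.17) and eRF3 (0.17). The hep value is that of the lic promoter, 670 bp upstream of the hep TSS, and it was nearest to the neighbour CG2200 (0.24) and to CG14036 (0.34). Nearest to slpr were Hsp67Bc (0.11) and serp (0.21). For egr they were CG42327 (0.05) and Ntf-2 (0.17). Jra was nearest to CG13501 and Snp, which share a peak (0.15 each). The msn value is that of the RpL8 promoter, which lies within 1000 bp, and it was nearest to Gdap2 (0.14) and RpLP0-like (0.20), the second being a gene whose promoter lies in the Jra window. Likeness over 3 replicates is a description of these values alone.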

How the data were processed

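Chromatin from 3 biological replicates of whole psq-GFP larvae was profiled by ChIP-seq. The authors called peaks for each replicate and for the pooled replicates against a control, and the optimal list was thresholded by the irreproducible discovery rate, per the deposited file listing. The score of each peak and, as the other column used, its summit offset are the authors' deposited values on dm6. The caller and aligner are not named in the sources used here. The dm3 lists, signal tracks and control were not analysed here. No deposited column gives read counts, so depth is unknown and no interval is given.

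Computed here with Python 3.11.15, numpy 2.4.6 and pandas 2.3.3: 1-based summits, windows of the Ensembl release 115 gene span plus 5 kb, relative scores, matching within 200 bp, and words in the RefSeq sequence of dm6. Transposable elements were left out. A position within 500 bp of any TSS counted as promoter first. With 1 group no test was made. Counts of genes or summits called are set beside the share over all coding genes, summits or genome windows. Matching, window counting and word search were checked on simulated data.

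The members and gene lists were chosen with earlier results of these data known. Genes were named by rule: all members with every summit, neighbours whose TSS is nearest to a summit, psq, the 3 highest genes of each list and the 2 genes most like each member. Genes named as lacking a summit were added to these, and 1 result under the rule is not reported here. Alternatives varied the flank, TSS distance, list, match distance, score scaling, word window and the replicates used.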

Additional observations from a re-analysis of the deposited data

How the results depend on the processing

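The 7 genes with a summit in the window became 6 or 7 under every alternative tried for the flank, the list and the replicates. Within 200 bp of a TSS 4 genes had a summit, in place of 7 within 1000 bp. The share of all coding genes under these alternatives is not given here, so these counts cannot be set against a background. The 50 summits became 30 in the gene span alone and also 30 in the list restricted to its higher-scoring 50%. Leaving out each replicate in turn gave 36 to 38 summits supported in the others. The highest relative score anywhere in the window had a median of 3.13 over the 7 members with a summit. For Jra and msn that summit was nearest to another gene. The median became 10.7 when scores were divided by the median of the full lists, which hold more weak peaks. It was 2.70 to 3.46 when 1 replicate was left out. Scaling by the full lists raised the value of each of the 7 genes and left puc highest at 29.4. puc was also the highest member under the other scaling, with a match within 100 bp and with each replicate left out. It led in every replicate, so rescaling or leaving out a replicate could not have changed this. Within 50 bp of the summit GAGAG was present at 28% of member summits and 28.5% of all optimal summits, and within 250 bp at 70% and 64.1%. No paired analysis was possible because there is a single group. The lists carry no read counts, so how depth limits weak peaks or empty windows could not be measured. Relative scores are ratios of the authors' scores and were not set against read counts.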

Other observations

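Genes of the p38 branch, a sister MAP kinase chain, were listed beside the JNK genes. Of 4, 3 had an optimal summit within 1000 bp of a TSS, against 28.7% of all coding genes. The kinase gene p38b had relative scores of 2.89, 4.41 and 2.07 (3.12 ± 1.19) at a summit 67 bp from the TSS of CG9008, and p38a had 1.12 and 1.18 in the 2 replicates where it was found. The summit of lic, at 0.883 ± 0.487, is the same peak that lies in the window of hep. No summit was found near a TSS of p38c, although 3 lay in its window.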
